A study of Mus musculus with 12 samples.

Results

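The genes described here are 7 members of the solute carrier 6 (SLC6) family that move glycine or proline across membranes, namely Slc6a20a, Slc6a20b, Slc6a9, Slc6a5, Slc6a7, Slc6a15 and Slc6a17. They were chosen by symbol, and all 7 were among the 19775 genes of the deposited table. The brains of 12 male C57BL/6N mice at about postnatal day 120 were analyzed by RNA sequencing, 4 of them wild type (WT), 4 heterozygous for the mutation (Slc6a20a+/-, HT) and 4 homozygous (Slc6a20a-/-, HM). The mutant mice lack exon 3 of Slc6a20a, all 3 genotypes came from crosses of heterozygous parents, and the labels name no treatment. The comparisons ask how far the targeted gene fell with 1 or 2 mutant alleles, and whether the other carriers of the same amino acids differed between genotypes. Each value is a normalized count, that is, reads estimated per gene and scaled by a factor per mouse, and the scaled totals of the mice lay between 33284951 and 33748623. The labels do not say whether mice shared a litter.

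SLC6 proteins are carriers that use the sodium gradient to bring neurotransmitters and amino acids into cells. Glycine is the transmitter of inhibitory neurons in the brainstem and spinal cord, and in the forebrain it is a co-agonist of NMDA receptors, where uptake by the transporter GlyT1 keeps its level low. Proline is taken up by other members, some of which sit in nerve terminals of glutamatergic neurons or on synaptic vesicles. Slc6a20 proteins carry proline and related imino acids, and they also move glycine.

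Slc6a20a has a close neighbor, Slc6a20b, on the same strand, and the boundaries of the genes are 2204 bp apart. Of the 11 exons of the transcript Slc6a20a-201, exons 2 to 10 have a Slc6a20b exon of the same length (GENCODE M21 annotation, GRCm38). Exon 3, the exon missing from the mutant alleles, was the least alike of these, with 72 of 92 bases identical (78.3%), whereas the other exons had 86.5% to 100% identical bases. The sequences of exon 3 are shown as the same-length pair with the lowest percent of identical bases, with the bases that differ in capitals. They lie at chr9:123662949-123663040 for Slc6a20a and chr9:123610280-123610371 for Slc6a20b, both on the minus strand, and are written 5′ to 3′ along the transcript.
Slc6a20a exon 3: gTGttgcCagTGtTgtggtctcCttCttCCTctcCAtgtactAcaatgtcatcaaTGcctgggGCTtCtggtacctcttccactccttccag
Slc6a20b exon 3: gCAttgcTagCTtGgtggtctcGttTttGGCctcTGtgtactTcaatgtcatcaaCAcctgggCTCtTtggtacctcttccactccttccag
Exon 7 (chr9:123655003-123655165 in Slc6a20a, minus strand) is shown as the opposite case. All 163 of its bases are the same in Slc6a20b, so no base is in capitals, and a read that lies inside it could come from either gene.
Slc6a20a exon 7: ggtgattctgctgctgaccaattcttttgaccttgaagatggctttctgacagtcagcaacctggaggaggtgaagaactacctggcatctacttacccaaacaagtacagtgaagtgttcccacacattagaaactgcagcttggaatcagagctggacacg

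Reads were assigned with Salmon, whose index by default works with words of 31 bases, so shared words of that length bear on how reads could be divided between the paralogs. In Slc6a20a-201, 41.4% of the 2732 bases lay in words that Slc6a20b transcripts also hold. These bases made up 97.2% of exon 2, 96.9% of exon 4, all of exon 7 and 99.4% of exon 10, but 27.2% of exon 3 and 7.21% of exon 5. The first exon had none of them and the last exon 0.2%. Over all transcripts of each gene, the 801 shared words were 19.5% of the words of Slc6a20a and 9.27% of those of Slc6a20b. The other 5 members shared no word with another member, and at most 0.399% of their words with any gene on the same strand.

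**Figure D1:**
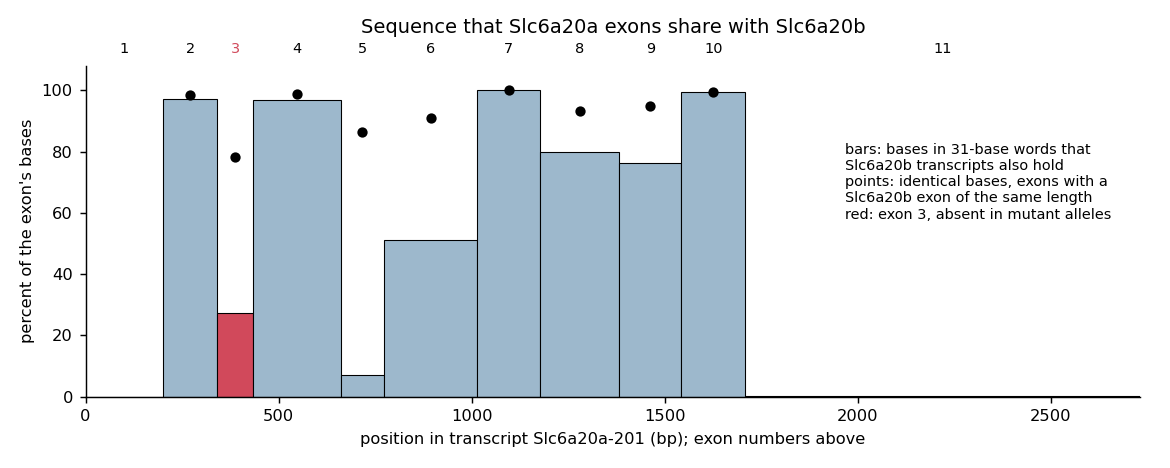
Percent of the bases of each Slc6a20a-201 exon that lie in 31-base words also held by Slc6a20b transcripts (bars, width = exon length in bp) and percent of identical bases for exons with a Slc6a20b exon of the same length (points), against position in the transcript in bp. Exon 3 (red) has 78.3% identical bases, the lowest point, while exon 7 reaches 100% on both measures.

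Slc6a20a (ENSMUSG00000036814, GRCm38 chromosome 9, 123634770 to 123678885) was lower with each mutant allele. The 4 WT mice had 704, 584, 678 and 750.5 normalized counts, the HT mice 332, 366, 372 and 310.3, and the HM mice 69.0, 55.6, 76.5 and 57.1. No value of one genotype reached into the range of another. The WT mean was 679 ± 70.1, the HT mean 345 ± 29.1 and the HM mean 64.5 ± 9.95 (SD, n = 4 mice each), so that HT mice had 50.8% and HM mice 9.50% of the WT mean. On the log2(normalized count + 1) scale, Slc6a20a fell by 0.97 in HT mice (95% interval -1.16 to -0.78, adjusted p = 0.000938 by limma, a linear model fitted across all genes tested, with Benjamini-Hochberg adjustment) and by 3.38 in HM mice (-3.65 to -3.12, adjusted p = 1.75e-08). HM mice were below HT mice by a further log2 fold change of -2.41 (-2.68 to -2.14, adjusted p = 1.79e-06, limma). The exact permutation p was 0.0286 in each comparison, the smallest that 4 against 4 mice can give. With a variance prior that does not follow the mean, the adjusted p in HT mice was 0.145 and the call was lost, and it ranged from 0.000234 to 0.145 over all alternatives. Slc6a20a is the gene the mice were made to lack, so its fall checks the genotype labels. Exon 3 holds 3.37% of the bases of Slc6a20a-201, and the table gives 1 value per gene, so reads of exon 3 were not analysed here. In tissue of mixed cells, fewer cells of a type and less RNA per cell cannot be told apart.

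Among the 7 members, 1 passed an adjusted p of 0.05 in each comparison, Slc6a20a, against 0.00555% of the 18004 genes tested in HT against WT, 0.0111% of 18004 in HM against WT and 0.00556% of 17986 in HM against HT. At an unadjusted p of 0.05, the counts were 2 of 7 in each comparison, where 6.42%, 6.99% and 3.74% of all genes passed. The second member was Slc6a17 in HT against WT and Slc6a20b in both others. The values of the 4 and 4 mice did not overlap for 2 members in HT against WT, 2 in HM against WT and 1 in HM against HT, where this held for 3.73%, 4.22% and 2.38% of all genes tested. Without Slc6a20a, the other 6 members had a median log2 fold change of 0.06 in HT and 0.03 in HM mice against WT, and of -0.02 in HM against HT, while the median of all genes lay between -0.0009 and 0.0001. All 7 members passed the filter on low values in every comparison. Both mutant groups were set against the same 4 WT mice.

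**Figure D2:**
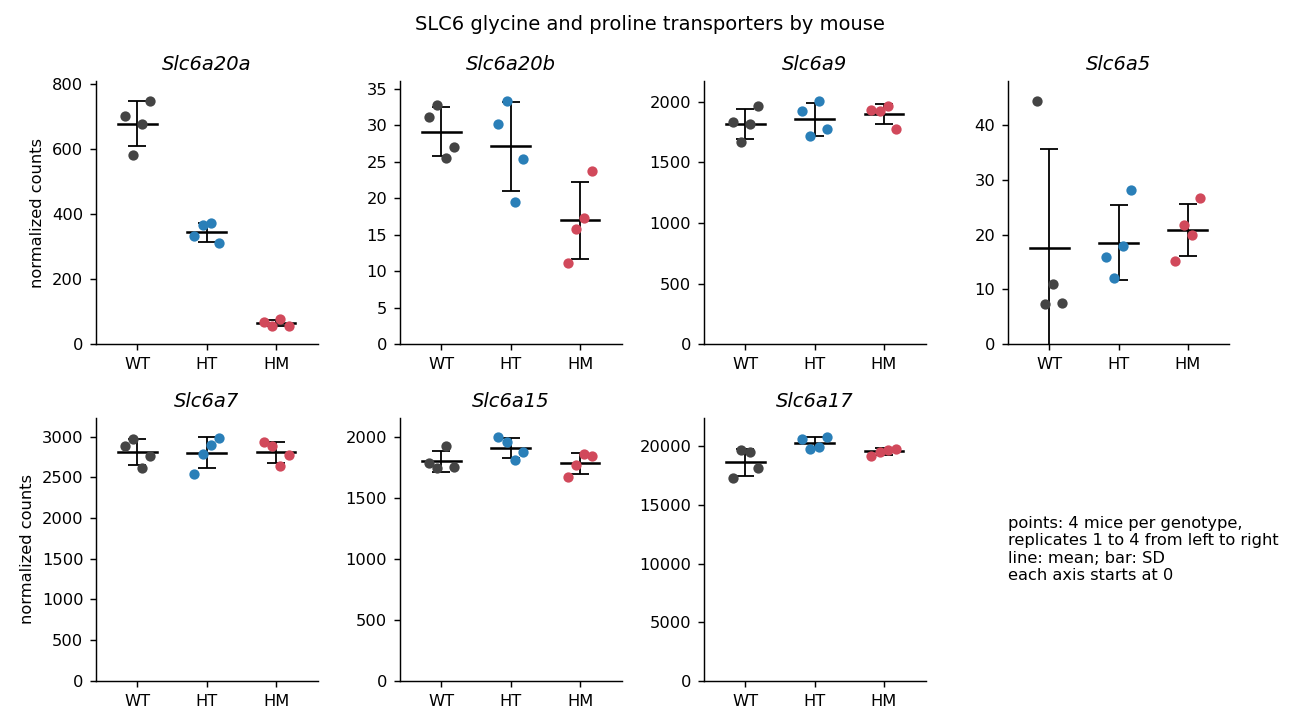
Normalized counts of the 7 members in each mouse (points, 4 mice per genotype), with mean (line) and SD (bar), on axes that start at 0. Slc6a20a falls from 584 to 750.5 in WT to 55.6 to 76.5 in HM mice, while the genotypes overlap for Slc6a9, Slc6a5, Slc6a7 and Slc6a15.

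Slc6a20b (ENSMUSG00000025243, chromosome 9, 123590800 to 123632565) was a low gene. The WT mice had 31.2, 32.7, 25.5 and 27.1 normalized counts, the HT mice 30.2, 33.4, 19.4 and 25.3, and the HM mice 11.1, 15.7, 17.3 and 23.8. HT mice spanned the whole WT range, and all 4 HM mice were below all 4 WT mice. The HM mean was 17.0 ± 5.24, which is 58.3% of the WT mean of 29.1 ± 3.40, and the HT mean was 27.1 ± 6.09 (SD, n = 4). The log2 fold change was -0.12 in HT (-0.61 to 0.36, unadjusted p = 0.60) and -0.78 in HM mice (-1.34 to -0.22, unadjusted p = 0.00981, adjusted p = 0.655, limma), and in HM against HT it was -0.66 (-1.26 to -0.07, unadjusted p = 0.0323, adjusted p = 1.0). Thus no difference in Slc6a20b passed the adjusted threshold. An animal-number block groups mice whose animal numbers start alike. With it the log2 fold change in HM against WT was -0.63 (unadjusted p = 0.0968, limma). Only HM replicates 3 and 4 and WT replicates 1 and 2 inform this difference, because no other HM and WT mice share a number start. In HM against HT the block left HM replicate 4 against HT replicates 1 and 2, with a log2 fold change of -0.40. Slc6a20a fell by a mean of 615 normalized counts from WT to HM mice, and the mean of Slc6a20b was lower by 12.1. The part that the shared sequence has in the lower Slc6a20b values was not tested.

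Transcripts on the opposite strand overlap 3 of the members, and the library kit does not mark strand. Gm17120, an antisense transcript at the last exon of Slc6a20a, holds 12.4% of the words of Slc6a20a. Its WT values were 8.80 to 30.6, its HT values 4.00 to 11.3 and its HM values 6.58 to 8.75. It passed the filter of a mean of 10 against WT only through the WT mice (mean 17.9, against 8.97 in HT and 7.70 in HM mice). Its tests are therefore not given, and in HM against HT it was below the filter. Sacm1l, a gene for a phosphoinositide phosphatase, overlaps Slc6a20b and holds 20.5% of its words. Its WT mean was 2841 ± 73.8 and its HM mean 2891 ± 133 (SD, n = 4), a log2 fold change of 0.02 (SE 0.04, adjusted p = 0.936, limma). Reads of a gene and of its antisense partner cannot be told apart without strand.

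The glycine transporter GlyT1, encoded by Slc6a9 (ENSMUSG00000028542, chromosome 4, 117834506 to 117875198), is found mainly on astrocytes and clears glycine around synapses. It had 1828, 1663, 1815 and 1961 normalized counts in the WT mice, 1922, 1712, 2008 and 1775 in the HT mice and 1929, 1918, 1965 and 1776 in the HM mice. The genotypes overlapped in every comparison. Slc6a9 had a log2 fold change of 0.03 in HT (-0.11 to 0.16, adjusted p = 0.962) and of 0.06 in HM mice (-0.06 to 0.18, adjusted p = 0.838, limma). Ccdc24, on the opposite strand, holds 26.1% of the words of Slc6a9, with 53.6 ± 16.3 normalized counts in WT mice (SD, n = 4).

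The neuronal glycine transporter GlyT2, encoded by Slc6a5 (ENSMUSG00000039728, chromosome 7, 49910146 to 49963856), refills the terminals of glycinergic neurons, whose cell bodies lie mostly in the brainstem and spinal cord. It had 44.5, 7.42, 11.0 and 7.61 normalized counts in the WT mice, 16.02, 12.0, 17.998 and 28.3 in the HT mice and 15.3, 21.8, 19.9 and 26.7 in the HM mice. WT replicate 1 stood above every other mouse, and the other 3 WT mice were below every HT and HM mouse. With all mice, the log2 fold change was 0.41 in HT (-0.64 to 1.45, unadjusted p = 0.413) and 0.61 in HM mice (-0.41 to 1.63, unadjusted p = 0.219, limma). Without WT replicate 1 it was 0.97 in HT (unadjusted p = 0.0165, adjusted p = 0.776) and 1.17 in HM mice (unadjusted p = 0.00287, adjusted p = 0.554), and without WT replicate 2 it was 0.16 and 0.36. With the animal-number block it was 1.06 in HT mice (unadjusted p = 0.00664, adjusted p = 0.682, limma). There WT replicate 1 shares its number start with no other mouse, so this block also leaves it out of the difference. In HM mice the block gave 0.30 (unadjusted p = 0.634, adjusted p = 0.921, limma), from HM replicates 3 and 4 and WT replicates 1 and 2 alone. The adjusted p over all alternatives ranged from 0.682 to 0.985 in HT and from 0.554 to 0.921 in HM mice.

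WT replicate 1 also had the highest values of 2 genes of serotonin neurons, another cell type of the brainstem. Slc6a4, the serotonin transporter, had 45.6 normalized counts in this mouse and 1.91 to 13.3 in the other WT mice, and Tph2, the enzyme that starts serotonin synthesis in neurons, had 88.3 against 25.5 to 33.5. Tph2 was chosen after its values were seen. HM replicate 4, with the highest Slc6a5 value of the HM mice, had 31.8 of Slc6a4 and 73.9 of Tph2. In contrast, HT replicate 4 had the highest Slc6a5 value of the HT mice (28.3) but 1.62 of Slc6a4, where the HT mice spanned 0.869 to 8.81, and the lowest Tph2 value of all 12 mice (14.1, with 17.5 to 31.1 in the other HT mice). The tissue is labeled whole brain. Of the 12 Hox genes listed as markers of hindbrain and spinal cord, none was analysed here. Pcp2 and Cbln3, genes of cerebellar Purkinje and granule cells chosen after their values were seen, had 5.54 to 26.4 and 12.1 to 24.5 normalized counts over the 12 mice, in the range of Slc6a5. The part of the amount of hindbrain tissue in the Slc6a5 values was not tested.

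The brain proline transporter PROT, encoded by Slc6a7 (ENSMUSG00000052026, chromosome 18, 60995380 to 61014222), sits in terminals of glutamatergic neurons. It had a WT mean of 2810 ± 155, an HT mean of 2801 ± 192 and an HM mean of 2809 ± 129 (SD, n = 4), and the lowest and highest mice were 2619 and 2973, 2541 and 2986, and 2644 and 2932. These ranges lay almost on top of each other. On the log2 scale the change was -0.01 in HT (-0.13 to 0.12) and 0.0004 in HM mice (-0.11 to 0.11), with adjusted p values of 0.995 and 1.0 (limma).

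Slc6a15 (ENSMUSG00000019894, chromosome 10, 103367783 to 103419377) encodes B0AT2, a neuronal carrier of branched-chain amino acids and proline. The WT mice had 1787, 1741, 1923 and 1749 normalized counts, the HT mice 1997, 1955, 1810 and 1872 (means 1800 ± 84.2 and 1908 ± 83.7), and the HM mice 1669, 1773, 1856 and 1841 (1785 ± 85.1). HT mice had the highest mean, and all 3 ranges overlapped. Slc6a15 had a log2 fold change of 0.08 in HT against WT (-0.02 to 0.19, adjusted p = 0.832), -0.01 in HM against WT (-0.12 to 0.10, adjusted p = 0.974) and -0.10 in HM against HT (-0.20 to 0.01, adjusted p = 1.0, limma).

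Slc6a17 (ENSMUSG00000027894, chromosome 3, 107467543 to 107518018) encodes NTT4, a carrier on synaptic vesicles that takes up proline, glycine and leucine. The WT mice had 17279, 19672, 19485 and 18109 normalized counts, the HT mice 20610, 19743, 19973 and 20767, and the HM mice 19186, 19550, 19689 and 19799.9. All HT mice were above all WT mice, and the HM mice overlapped the WT range. For Slc6a17, the log2 fold change was 0.12 in HT (0.03 to 0.22, unadjusted p = 0.0171, adjusted p = 0.768, exact permutation p = 0.0286) and 0.07 in HM mice (-0.02 to 0.16, adjusted p = 0.762, limma). No difference in Slc6a17 passed the adjusted threshold. WT replicate 1, with the lowest Slc6a17 value, also had the lowest summed level of 7 genes of forebrain glutamatergic neurons (120568 against 125042 to 132866 in the other mice). Without this mouse the log2 fold change was 0.09 in HT and 0.04 in HM mice. The unadjusted p in HT mice was 0.055 without a variance trend and 0.0634 with the animal-number block (log2 fold change 0.08, limma). This block leaves WT replicate 1 out of the difference. With it Slc6a5 took the place of Slc6a17, so that the number of members past an unadjusted p of 0.05 was again 2.

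**Figure D3:**
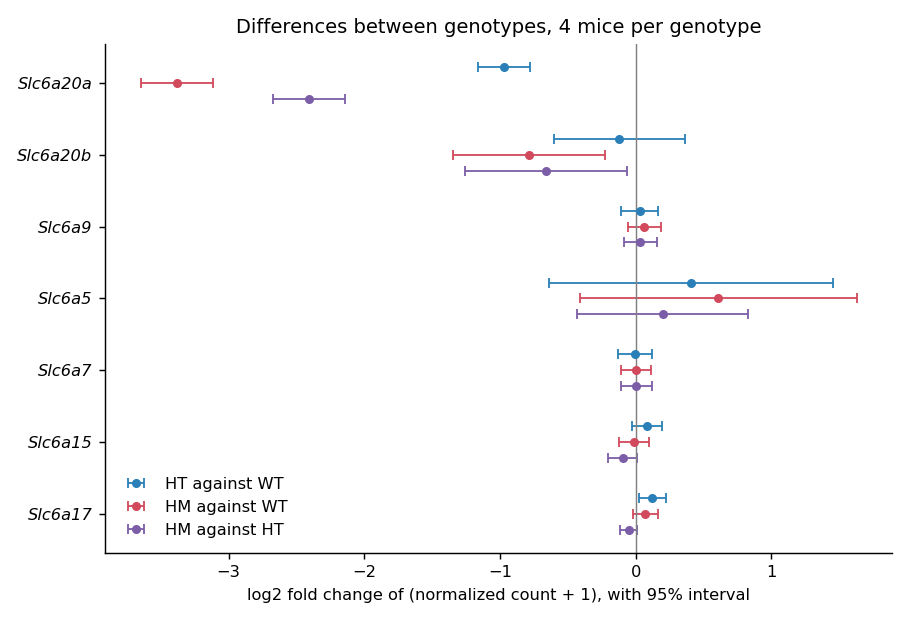
Log2 fold change of (normalized count + 1) for each member in 3 comparisons (points), with 95% intervals from limma, 4 mice per genotype. Slc6a20a lies at -0.97, -3.38 and -2.41, far from 0, and the intervals of Slc6a9, Slc6a7 and Slc6a15 all include 0, while those of Slc6a5 are the widest.

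Per kb of transcript, the members covered a wide range of levels in WT mice. Slc6a17 was the highest with 4254 ± 261 normalized counts per kb (SD, n = 4), followed by Slc6a9 with 1050 ± 70.5, Slc6a7 with 835 ± 46.2, Slc6a15 with 674 ± 31.5 and Slc6a20a with 277 ± 28.6. Slc6a20b and Slc6a5 were far lower, with 4.62 ± 0.539 and 3.21 ± 3.27. Neighbors in this order did not overlap over the 4 WT mice, except Slc6a20b and Slc6a5. The ratio of Slc6a20a to Slc6a20b per kb was 60.1, and Slc6a17 made up 59.9% of the summed level of the members. With the longest transcript of each gene instead of the mean over its protein-coding transcripts, Slc6a7 (835) came before Slc6a9 (522), and the other places were the same. Slc6a20a was then 174 per kb and Slc6a20b still 4.62, so the ratio of 60.1 depends on the length used. In HM mice, Slc6a20a per kb was 26.4 ± 4.06, still above Slc6a20b at 2.69 ± 0.831.

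**Figure D4:**
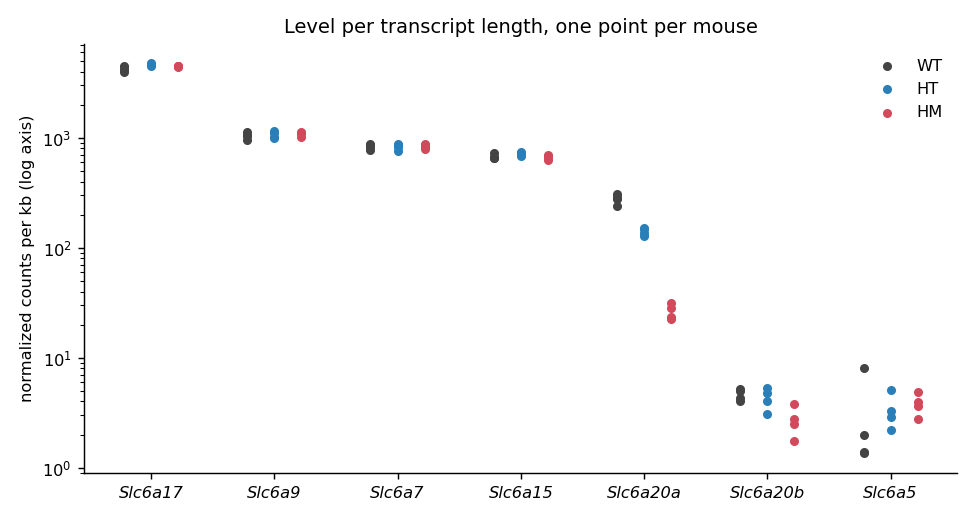
Normalized counts per kb of transcript on a log axis for the 7 members, 1 point per mouse, colored by genotype. In WT mice the members run from 4254 per kb for Slc6a17 to 3.21 for Slc6a5, and Slc6a20a is the only member whose 3 genotypes form separate bands.

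The members differed in how much mice of one genotype varied. Among the WT mice the coefficient of variation was 4.68% to 6.71% for Slc6a9, Slc6a7, Slc6a15 and Slc6a17, 10.3% for Slc6a20a, 11.7% for Slc6a20b and 102% for Slc6a5. In the HM mice it was 15.4% for Slc6a20a, 30.9% for Slc6a20b and 1.37% for Slc6a17. The abundant members thus had narrow ranges and the low ones wide ranges.

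Slc6a20a is known to be expressed in the meninges, the membranes around the brain, and its values within a genotype followed the markers of this tissue. The 10 meningeal markers (Dcn, Lum, Ogn, Col1a1, Col1a2, Igf2, Foxc1, Aldh1a2, Slc22a6 and Slc47a1) were all measured and none was at 0 in any mouse. Summed over the list, the WT mice had 4355 to 6160 normalized counts, the HT mice 4346 to 5394 and the HM mice 4267 to 5491. In the 4 HT mice and in the 4 HM mice, the order of Slc6a20a was the same as that of the summed markers. In the WT mice it was not, as replicate 1 had more Slc6a20a than replicate 3 (704 against 678) but a lower marker sum (5165 against 5270). After the mean of each genotype had been subtracted, Slc6a20a and the mean log2 level of the markers had Pearson's r = 0.919 over 12 mice (exact permutation p within genotypes = 0.0008681, adjusted over 8 relations p = 0.006944) and Spearman's rho = 0.930 (exact permutation p = 0.003038, adjusted p = 0.02431). Leaving out WT replicates 2 and 4, whose marker levels lay farthest from the middle, r was 0.934. The labels name no batch, and 4 mice per genotype are too few for an r within each.

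As a share of the summed meningeal markers, Slc6a20a was 13.6%, 13.4%, 12.9% and 12.2% in the WT mice, 6.69%, 7.05%, 6.89% and 7.14% in the HT mice and 1.392%, 1.303%, 1.393% and 1.301% in the HM mice. This share, which was chosen after the values were seen, had coefficients of variation of 4.95%, 2.85% and 3.86% in the WT, HT and HM groups, whereas Slc6a20a itself had 10.3%, 8.42% and 15.4%. The HT mean of the share was 53.3% and the HM mean 10.3% of the WT mean. The share varied less from mouse to mouse than the gene itself in each genotype.

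**Figure D5:**
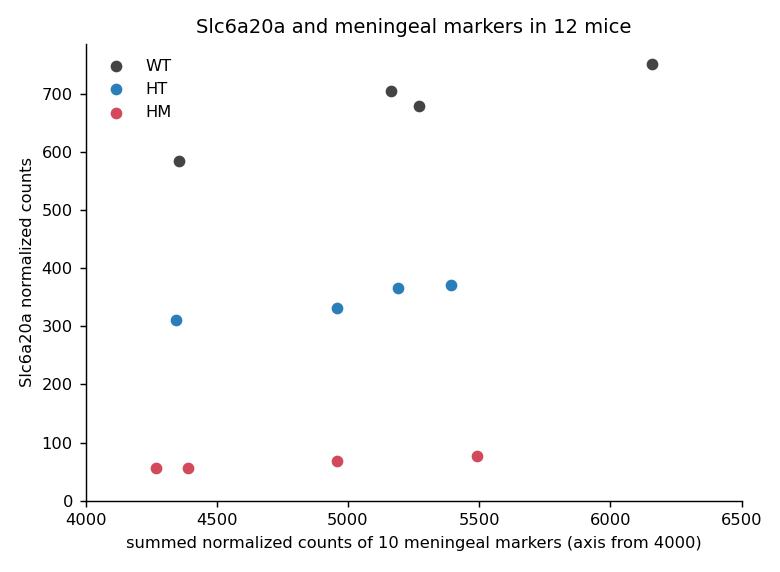
Slc6a20a normalized counts against the summed normalized counts of 10 meningeal markers in the 12 mice, colored by genotype. The horizontal axis does not start at 0. Within HT and HM mice Slc6a20a is higher with each higher marker level, from 310.3 to 372 and from 55.6 to 76.5, and the genotypes form separate rows.

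Markers of the choroid plexus, the tissue that makes cerebrospinal fluid, varied in the same mice. The 10 markers, all measured and none at 0, had WT sums of 15487 to 20139, HT sums of 12722 to 20554 and HM sums of 9982 to 18252. Slc6a20a had r = 0.872 with them over the 12 genotype-centered mice (exact permutation p = 0.006655, adjusted p = 0.02662), rho = 0.853 (exact permutation p = 0.007089, adjusted p = 0.02836) and r = 0.809 without HM replicates 3 and 4. The relations with the meningeal and the choroid plexus markers were not separated. Slc6a20b had r = -0.462 with the meningeal markers (exact permutation p = 0.1476, adjusted p = 0.2361; rho = -0.615, exact permutation p = 0.0495, adjusted p = 0.1319) and r = -0.508 with the choroid plexus markers (exact permutation p = 0.2582, adjusted p = 0.3443; rho = -0.518, exact permutation p = 0.1749, adjusted p = 0.2799), and without the same pairs of mice r was -0.476 and -0.497. Neither relation of Slc6a20b passed the adjusted threshold. Slc6a9 had r = 0.546 with 9 astrocyte markers (exact permutation p = 0.1073, adjusted p = 0.2361) and rho = 0.336 (exact permutation p = 0.3395, adjusted p = 0.4526), and r was 0.00888 without WT replicates 2 and 4, so the value rested on these mice. For Slc6a7, Slc6a15 and Slc6a17 and the 7 markers of forebrain glutamatergic neurons, r was 0.522, -0.254 and -0.00694 and rho 0.511, -0.231 and -0.0559, with no adjusted p below 0.2361 by the exact permutation test. Without HT replicates 3 and 4 these r were 0.633, -0.520 and -0.219.

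The genes whose log2 level was most like that of each member over the 12 genotype-centered mice were looked for among 14502 or 14503 genes with 50 or more normalized counts on average. For Slc6a20a they were Sostdc1 (r = 0.950), Col1a2 (0.933) and Slc13a4 (0.929), where Sostdc1 is a choroid plexus and Col1a2 a meningeal marker of the lists above. For Slc6a9 they were Tln1 (0.983), Ajuba (0.942) and Gpam (0.933), and for Slc6a7 Neurod1 (0.948), Samm50 (0.932) and Rcor1 (0.924). Slc6a17 was most like Scn8a (0.945), the gene of a neuronal sodium channel, Ap2b1 (0.935) and Ptprj (0.934). Slc6a15 was most like Dcun1d1 (0.956), Gm10524 (0.941) and Tspan6 (0.922). The low members had Nr2f1 (0.970), Mvk (0.963) and Smyd2 (0.955) for Slc6a5, and Arsb (0.944), Cpeb1os1 (0.928) and Hapln1 (0.914) for Slc6a20b. Without centering, the genes most like Slc6a20a were C1qtnf12 (0.898), Yars2 (0.860) and Slc33a1 (0.854). With so many genes and 12 mice, high values of r arise for any gene, and these are given as a description. Among the 21 pairs of members, r ran from -0.809 for Slc6a7 and Slc6a15 to 0.587 for Slc6a20a and Slc6a9.

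The other SLC6 genes did not pass the adjusted threshold in any comparison. Of 13 listed genes, 9 could be tested in HT against WT, 10 in HM against WT and 9 in HM against HT. At an unadjusted p of 0.05, 1, 2 and 0 of them passed, beside the 6.42%, 6.99% and 3.74% of all genes. Slc6a6, the taurine transporter, had log2 fold changes of 0.11 in HT (unadjusted p = 0.0309, adjusted p = 0.77) and 0.11 in HM mice (unadjusted p = 0.0452, adjusted p = 0.701, limma), and leaving out single mice took its unadjusted p in HM mice as high as 0.154. In HT mice its unadjusted p was 0.0512 with the replicate block, 0.09 with the animal-number block, 0.071 with quantile normalization and 0.0717 without a variance trend. In HM mice it was 0.103 with quantile normalization and 0.104 without a variance trend. With the animal-number block it was 0.00239 in HM mice (log2 fold change 0.23, limma), from HM replicates 3 and 4 and WT replicates 1 and 2 alone. Slc6a11, the GABA transporter GAT3 of astrocytes, had a WT mean of 9275 ± 456 and an HM mean of 10105 ± 268 (SD, n = 4) without overlap, as 4.22% of all genes had, and a log2 fold change of 0.12 (unadjusted p = 0.00977, adjusted p = 0.655, limma). In HT mice the list ran from -0.32 for Slc6a12 (the betaine and GABA transporter BGT1) to 0.29 for Slc6a3 (the dopamine transporter), in HM mice from -1.46 for Slc6a4 to 0.34 for Slc6a3, and in HM against HT from -0.13 for Slc6a16 to 0.28 for Slc6a12. The median log2 fold changes were -0.03, -0.05 and 0.02. Slc6a2, Slc6a14 and Slc6a18 were not analysed here.

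Of 10 glycine and proline carriers outside the SLC6 family, 9 were tested in each comparison and 0 passed the adjusted threshold. At an unadjusted p of 0.05, 1 gene of the list passed in each comparison (limma), beside the 6.42%, 6.99% and 3.74% of all genes. In HT mice it was Slc32a1, the vesicular carrier of GABA and glycine, with a log2 fold change of 0.12 (unadjusted p = 0.0469, adjusted p = 0.772). With single mice left out its unadjusted p reached 0.13. It was under 0.05 in 1 of these fits, without HT replicate 2 (log2 fold change 0.18, unadjusted p = 0.000862, adjusted p = 0.776, limma). In both comparisons of HM mice it was Slc38a5, the carrier SNAT5 of glutamine and glycine. Slc38a5 had 77.5, 33.6, 36.9 and 41.4 normalized counts in the WT mice, 46.0, 58.6, 56.1 and 48.0 in the HT mice and 78.1, 87.4, 69.95 and 61.2 in the HM mice. HM mice were above 3 of the 4 WT mice and above all HT mice, an absence of overlap that 2.38% of all genes had in HM against HT. In HM against WT the log2 fold change was 0.71 (0.18 to 1.23, unadjusted p = 0.012, adjusted p = 0.655) and 0.49 in HM against HT (0.15 to 0.84, unadjusted p = 0.0089, adjusted p = 1.0, limma). With the animal-number block it was 0.35 in HM against WT (unadjusted p = 0.223, adjusted p = 0.763, limma), so that Slc38a5 no longer passed there. This value rests on HM replicates 3 and 4 and WT replicates 1 and 2, the only mice that share a number start across both genotypes. In HM against HT the block gave 0.23, from HM replicate 4 against HT replicates 1 and 2, so no p-value is given. Over all alternatives the adjusted p was 0.368 to 0.874 in HM against WT and 0.828 to 1.0 in HM against HT. In HT mice the list ran from -0.09 for Slc38a2 (SNAT2) to 0.33 for Slc36a2, in HM mice from -0.08 for Slc25a38, a mitochondrial glycine carrier, to 0.71 for Slc38a5, and in HM against HT from -0.08 for Slc36a2 to 0.49 for Slc38a5. Slc7a10, the carrier Asc-1 that exchanges glycine and D-serine, had a WT mean of 926 ± 71.0, an HT mean of 944 ± 63.9 and an HM mean of 967 ± 51.2 normalized counts. Slc36a3 was not analysed here.

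The summed levels of other tissue lists are given beside Slc6a20b and Slc38a5, without a test. The 7 markers of the olfactory bulb (Omp, Doc2g, Tbx21, Th, Calb2, Eomes and Cdhr1) were all measured and none was at 0. They had WT sums of 2254 to 2603, HT sums of 2063 to 2472 and HM sums of 2703 to 3494, so that all HM mice were above the other mice. The study reported Eomes and Cdhr1 among its upregulated genes in HM mice, so the higher HM sum is partly built into this list. Markers of the blood gave 7780 to 21984, 6495 to 8717 and 5859 to 29023 in the same order, and the astrocyte markers 113034 to 126173, 125455 to 130840 and 124671 to 128915. For blood and astrocytes the HM range overlapped both others. The part of these tissues in the values of the members was not tested.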

How the data were processed

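RNA from the brains of 12 mice was sequenced as poly-A libraries (paired ends of 100 bp). Per the labels and the study's methods, the authors quantified reads against GRCm38 with Salmon 1.1.0 (GC bias correction), summed them to genes with tximport and divided them by DESeq2 1.30.1 size factors. The deposited signal is therefore a normalized count, not a read count, and count models were not fitted. The depth before normalization is unknown. All 12 columns of the table were used (0 left out). Of 19775 gene identifiers, 19758 matched GENCODE M21.

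Genotypes were compared with limma 3.58.1 (R 4.3.3) after taking log2(normalized count + 1). Every gene that averaged 10 or more over the 8 mice compared entered the fit, its variance prior followed the mean, and the Benjamini-Hochberg method adjusted the p-values over all these genes (threshold 0.05). Single genes were also tested by two-sided exact permutation. The p-values measure the spread between mice. Fold changes on this scale understate those of low genes. Lengths and exons came from GENCODE transcripts, and words of 31 bases were counted in them. The limma step was tested on simulated data. Further steps used Python 3.11.15 with numpy 2.4.6, scipy 1.17.1, pandas 2.3.3 and matplotlib 3.10.9.

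The members, gene lists and tests were chosen with earlier results of these data known. Named genes were the 7 members, genes of the other carrier lists with an unadjusted p under 0.05 or the highest or lowest change, and the 3 genes most like each member; genes chosen after their values were seen are named as such, and antisense partners and Slc7a10 were also chosen outside this rule. Alternatives were a pseudocount of 0.1, no filter, at least 10 in every mouse, a fit of all 12 mice, a replicate block, an animal-number block, quantile normalization, other variance priors, leaving out each mouse, the longest transcript and Spearman's rho. The deviations of same-numbered mice had correlations from -0.0756 to 0.0981. This check cannot exclude that the numbers pair the mice, and the labels do not say.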

Additional observations from a re-analysis of the deposited data

Results flagged for a closer look

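Slc6a5 in WT replicate 1 was 44.5 normalized counts, far from the other WT mice, and 4 further values of the carrier lists stood apart from the rest of their genotype. These were Slc6a4 in HT replicate 1 (8.81) and in HM replicate 4 (31.8), Slc38a4 in WT replicate 2 (47.6) and Slc32a1 in HT replicate 2 (3786). In all, 5 of 78 groups of 4 mice held such a value, where chance gives about 1 in 20.

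The log2 fold change of Slc6a20a differed between the mutant genotypes, by -2.41 in HM against HT mice (95% interval -2.68 to -2.14, limma, adjusted p = 1.79e-06), and all 4 HM mice were below all 4 HT mice.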

How the results depend on the processing

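Slc6a20a kept its direction and its call under every alternative run in HM against WT and HM against HT, with log2 fold changes of -3.47 to -3.32 and -2.49 to -2.34 when single mice were left out. In HT mice it was -1.04 to -0.92 when single mice were left out, and without a variance trend the same value of -0.97 no longer passed (adjusted p = 0.145 by limma), which left 0 members and 0 genes past the adjusted threshold and 1 member past an unadjusted p of 0.05. The number of genes past the adjusted threshold was 1 to 5 in HT against WT (2 without WT replicate 2, 5 without HT replicate 3), 2 to 3 in HM against WT and 1 to 7 in HM against HT with single mice left out (2 without HT replicate 2, 3 without HT replicate 3 or 4, 7 without HM replicate 2 or 3). In HM against WT it was 1 with the replicate block and 1 without a variance trend, and in HM against HT it was 2 without a filter. Members past an unadjusted p of 0.05 numbered 1 with the animal-number block in HM against WT, where HM replicates 3 and 4 and WT replicates 1 and 2 inform the difference. No count is given for this block in HM against HT, where it leaves HM replicate 4 against HT replicates 1 and 2. In HM against HT the number was 1 with the replicate block and 1 to 3 with single mice left out (1 without HT replicate 1, HM replicate 1 or HM replicate 2). The replicate block changed no call at the adjusted threshold among the members. Of the 8 mice compared, 4 deviated most like the mouse of their own replicate number in each comparison with WT and 1 in HM against HT.

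Only log2 fold changes near 0 turned their sign, and none of these passed the adjusted threshold. With the animal-number block, these were Slc6a7 in HT (0.0133) and in HM against WT (-0.1142), Slc6a15 in HM against WT (0.0673) and Slc6a9 in HM against HT (-0.031), and with quantile normalization Slc6a7 in HM against WT (-0.0085). The block leaves WT replicate 1 out of the difference in HT against WT. Its values rest on HM replicates 3 and 4 and WT replicates 1 and 2 in HM against WT. In HM against HT they rest on HM replicate 4 against HT replicates 1 and 2. With single mice left out, the range reached across 0 for Slc6a20b (-0.2272 to 0.0231), Slc6a9 (-0.0126 to 0.0666) and Slc6a7 (-0.0388 to 0.0403) in HT against WT, for Slc6a7 (-0.0329 to 0.0292) and Slc6a15 (-0.0318 to 0.0195) in HM against WT, and for Slc6a9 (-0.003 to 0.0736) and Slc6a7 (-0.0399 to 0.0376) in HM against HT. The cause of these changes was not tested. With Spearman's rho, 1 of the 3 genes most like Slc6a20b, Slc6a5 and Slc6a15 stayed the same and 0 of the 3 most like Slc6a17. With at least 10 in every mouse, Slc6a5 could not be tested against WT. Slc6a5 and Slc6a20b are limited by their low counts, and levels between genes by the transcript length assumed.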
